A study of Homo sapiens with 9 samples.

Results

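The genes that build cholesterol and fatty acids were followed across MII, MIII and MIV, 3 human breast lines derived from MCF-10A. The list holds 34 symbols of pathway genes, and 31 of them had a probe set of their own among the 19775 genes on the array. For CYP51A1 and FADS1, 5 probe sets list a further gene as well and were not used, and FDFT1 was not analysed here. Where a gene had several probe sets, the brightest on average over the 9 arrays stands for it. MII is the line MCF-10AT1Kcl2, labelled carcinoma in situ, MIII is MCF-10A1h, labelled carcinoma, and MIV is MCF-10A1a, labelled metastatic carcinoma, with 3 Affymetrix arrays of total RNA per line. All 3 lines descend from the non-tumorigenic breast epithelial line MCF-10A, carry activated HRAS and by their labels were untreated and grown in the same medium, DMEM/F12 with horse serum, insulin, cholera toxin, epidermal growth factor and hydroxycortisone. Each stage is represented by 1 cell line, so stage and line cannot be told apart. The arrays of a line are labelled as biological replicates, and nothing says that the cultures were separate, so a p-value here measures only array-to-array spread, part of which may be technical.

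Cholesterol is made from acetyl-CoA through the mevalonate pathway, squalene and lanosterol, and fatty acids are made from the same acetyl-CoA by carboxylation, chain building, elongation and desaturation. Transcription of most of these enzymes is driven by the sterol regulatory element-binding proteins (SREBPs), encoded by SREBF1 and SREBF2. The protein SCAP carries them from the endoplasmic reticulum to the Golgi, where proteases release the active factor, and the INSIG proteins hold SCAP back when sterols are plentiful. Breast epithelium makes much lipid during lactation, and cultured epithelial cells use the pathway for membranes and for prenyl groups on proteins such as RAS.

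The values are linear MAS5 signals, with a median per array between 64.7 and 74.9 and a pooled median of 69.3. Tests used log2(signal + 18.3) in limma over 12594 genes, and all 31 genes of the pathway passed the filter on low signals. A gene was called when its limma adjusted p was under 0.05 and its change at least 2-fold. Precision is limited by the number of arrays. Log2 changes had a median standard error of 0.07 over the pathway genes and 0.11 over all genes. An exact permutation test of 3 arrays against 3 cannot give a p below 0.1.

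Most of the pathway was lowest in MIII, intermediate in MII and highest in MIV. In 22 of the 31 genes all MIII arrays lay below all MII arrays and all MII arrays below all MIV arrays, an order that 5.38% of all genes tested showed. The 9 genes without it were the thiolases ACAT1 and ACAT2, the sterol dehydrogenase NSDHL, the regulators SREBF1, SREBF2 and SCAP, the cholesterol esterifying enzyme SOAT1, the carboxylase ACACA and the desaturase FADS2.

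**Figure D1:**
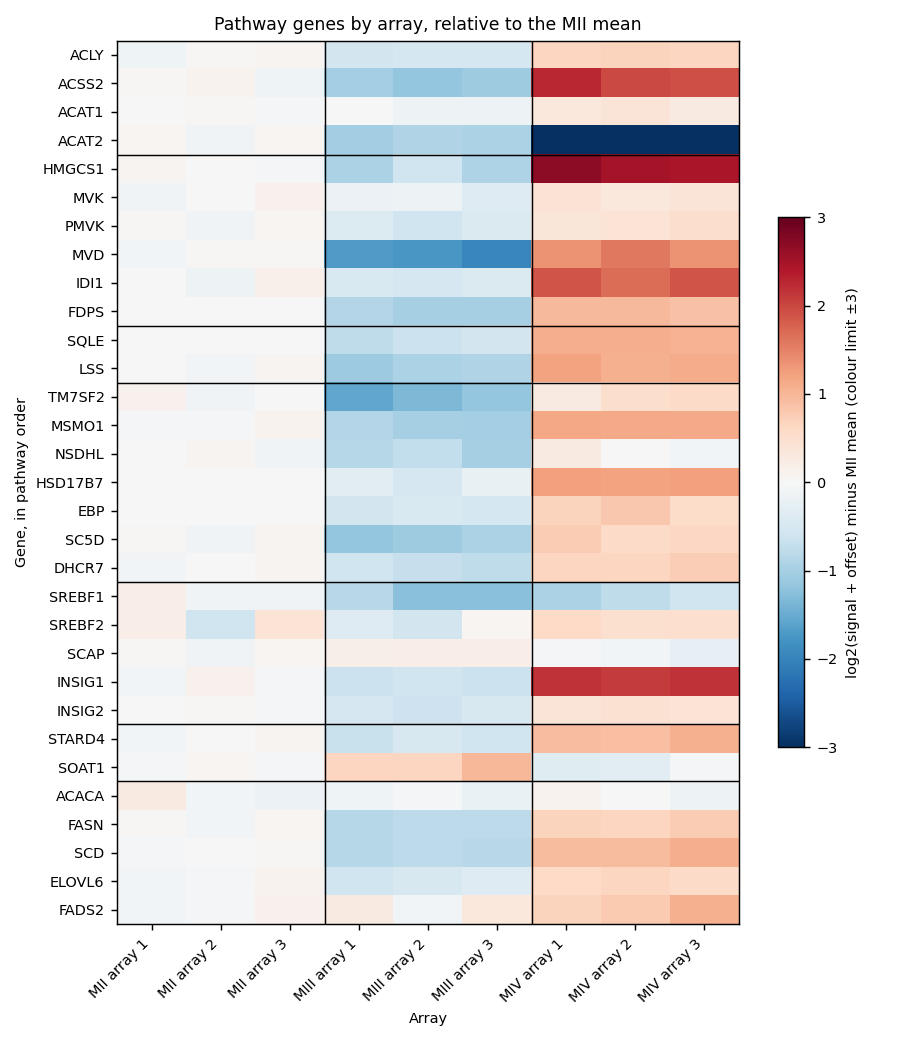
Heat map of the 31 pathway genes (rows, in pathway order, with black lines between steps) over the 9 arrays (columns). Colour gives log2(signal + 18.3) minus the mean of the 3 MII arrays, limited to 3 in either direction. Most rows are blue in MIII and red in MIV, while ACAT2 is blue in both and SOAT1 is red in MIII.

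In MIV against MIII, 19 of the 31 genes were called up, against 4.95% of all genes tested, and 2 were called down (ACAT2 and SOAT1), against 7.79%. The median log2 change was 1.36 over the pathway and -0.01 over all genes. All MIV arrays lay above all MIII arrays in 26 genes of the pathway, as they did in 28.4% of all genes. In MIV against MII, 9 genes were called up, against 2.96% of all genes, and ACAT2 alone was called down, against 5.18%. The median log2 change was 0.68 over the pathway and -0.03 over all genes, and 25 pathway genes had all MIV arrays above all MII arrays, against 23.7% of all genes. In MIII against MII, 5 genes were called down, against 5.55% of all genes, and limma called 0 up, against 6.17%. The median there was -0.62 over the pathway and -0.02 over all genes. At an unadjusted limma p under 0.05 and with no fold minimum, 2 genes were higher and 25 lower in MIII than in MII, against 3225 higher and 3483 lower among all 12594 genes. All MIII arrays lay below all MII arrays in 25 pathway genes, against 28.6% of all genes. These comparisons share arrays, each line entering a pair of them, so they are not independent of each other.

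**Figure D2:**
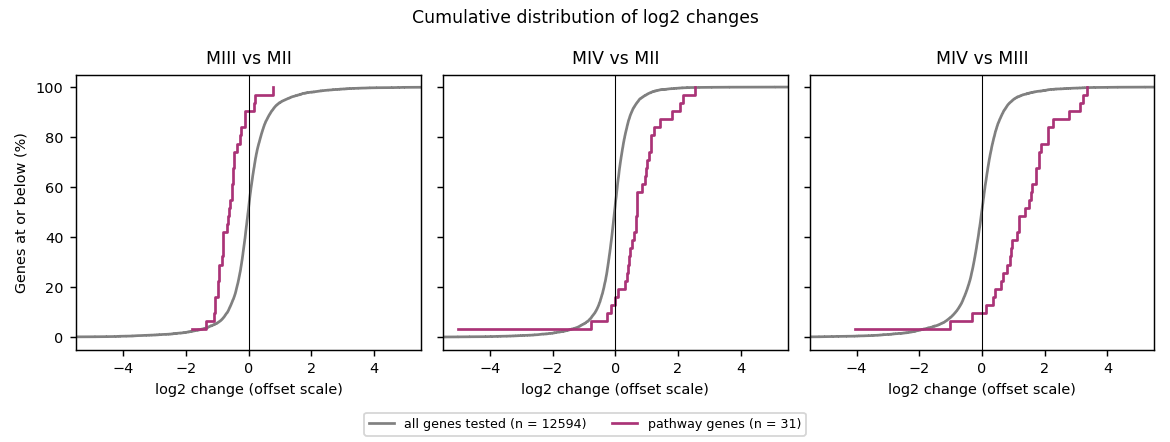
Cumulative share of genes (y axis, percent) at or below each log2 change (x axis, offset scale) for the 31 pathway genes and all 12594 genes tested. The curve of the pathway lies left of that of all genes in MIII vs MII (medians -0.62 and -0.02) and right of it in MIV vs MII (0.68 and -0.03) and MIV vs MIII (1.36 and -0.01), with ACAT2 as the far left step of both MIV panels. The x axes do not reach the most extreme of all genes.

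Markers of the labelled cell type and of other cell types moved between the lines too. Of 10 markers of breast epithelium, 7 had a probe set of their own, and KRT5, a basal keratin, stood at 25794 ± 922 in MII, 26308 ± 677 in MIII and 25069 ± 670 in MIV (n = 3, SD). The summed signal of these 7 markers ranged from 109312 to 114499 in MII, from 65750.0 to 66860.0 in MIII and from 108210.0 to 118369 in MIV. Limma called EPCAM, CDH1 and KRT14 lower in MIII than in MII, and EPCAM and CDH1 higher in MIV than in MIII, at log2 changes of 2.32 ± 0.07 and 2.47 ± 0.05. KRT14 was lowest in MIV and was called down there against MII (-3.82 ± 0.11) and against MIII (-2.66 ± 0.11). KRT8 and KRT18 were not called in any comparison, but were lowest in MIII and highest in MIV. They changed by -0.75 ± 0.04 and -0.65 ± 0.05 in MIII against MII (limma adjusted p = 7.48e-09 and 1.01e-07). In MIV against MIII they changed by 0.97 ± 0.04 and 0.88 ± 0.05 (adjusted p = 4.59e-10 and 4e-09). KRT19 was at or below the pooled median on all arrays. The summed signal of 8 fibroblast markers was 1133 to 1174 in MII, 4266 to 4519 in MIII and 784 to 840.0 in MIV, and DCN, THY1 and LUM were called up in MIII against MII. The other tested fibroblast markers were not called: FAP changed by -0.72 ± 0.11 in MIII against MII (limma adjusted p = 7.62e-05) and COL1A1 by -0.18 ± 0.18 (adjusted p = 0.431), while COL1A2, PDGFRA and PDGFRB were at or below the pooled median on all arrays. Among 6 adipocyte markers, PLIN1 and CIDEC were called up in MIII against MII, LIPE and PPARG were lower there at -0.66 ± 0.12 and -0.43 ± 0.08 (limma adjusted p = 0.000563 and 0.000413) without a call, ADIPOQ and LEP were at or below the pooled median on all arrays, and the sum was 2027 to 2087 in MII, 1765 to 2016 in MIII and 1637 to 1735 in MIV. THY1, LUM and PLIN1 passed the filter on low signals only through their MIII arrays, so the filter favoured their calls in MIII. LUM and PLIN1 were below the pooled median on all MII and MIV arrays, which leaves the size of their changes poorly measured. Leukocyte markers summed to 257 to 310.0 in MII, 87.1 to 214 in MIII and 206 to 218 in MIV, endothelial markers to 138 to 248, 293 to 341 and 262 to 364, and none of either list was called, with PTPRC, LYZ, CDH5, VWF and TEK at or below the pooled median on all arrays. In such bulk RNA, fewer cells of a type and less RNA per cell cannot be told apart, and the part of these markers in the pathway signals of MIII and MIV was not tested.

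Upstream sequences of 30 pathway genes were found in RefSeq (GRCh38.p14), while ACAT2, FDFT1, SQLE and FASN were not matched. The 4 genes with a window and the largest change in MIV against MIII are shown because they move together across the lines, and SREBF2 because it alone holds a match to the sterol element searched. Each sequence is the 250 bases before the annotated start, read in the direction of the gene. Capitals mark CCAAT or its reverse complement ATTGG, the box bound by NF-Y, a partner of SREBPs, and in SREBF2 also the match to TCACNCCAC, a core of sterol regulatory elements.
HMGCS1, chr5:43313413-43313662, minus strand: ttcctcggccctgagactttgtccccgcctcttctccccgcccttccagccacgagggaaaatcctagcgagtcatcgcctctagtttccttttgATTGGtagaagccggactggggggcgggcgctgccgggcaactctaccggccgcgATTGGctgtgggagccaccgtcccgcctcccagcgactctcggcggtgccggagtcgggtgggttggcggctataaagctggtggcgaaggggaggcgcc
MVD, chr16:88663092-88663341, minus strand: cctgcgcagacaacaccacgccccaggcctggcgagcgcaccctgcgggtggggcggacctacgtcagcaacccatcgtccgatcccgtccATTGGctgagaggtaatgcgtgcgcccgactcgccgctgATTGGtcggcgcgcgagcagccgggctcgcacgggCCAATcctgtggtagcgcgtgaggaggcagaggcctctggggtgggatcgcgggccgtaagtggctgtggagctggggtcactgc
ACSS2, chr20:34874739-34874988, plus strand: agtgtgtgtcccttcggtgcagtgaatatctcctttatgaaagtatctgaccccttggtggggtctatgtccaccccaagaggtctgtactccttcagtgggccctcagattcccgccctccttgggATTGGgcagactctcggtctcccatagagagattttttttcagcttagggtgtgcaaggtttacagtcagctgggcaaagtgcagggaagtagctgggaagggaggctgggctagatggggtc
INSIG1, chr7:155297628-155297877, plus strand: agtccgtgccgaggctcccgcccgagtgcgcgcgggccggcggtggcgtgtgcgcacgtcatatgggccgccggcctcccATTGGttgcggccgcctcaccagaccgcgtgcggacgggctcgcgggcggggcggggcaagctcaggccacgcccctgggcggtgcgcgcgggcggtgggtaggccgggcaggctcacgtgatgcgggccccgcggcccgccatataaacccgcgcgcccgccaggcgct
SREBF2, chr22:41832855-41833104, plus strand: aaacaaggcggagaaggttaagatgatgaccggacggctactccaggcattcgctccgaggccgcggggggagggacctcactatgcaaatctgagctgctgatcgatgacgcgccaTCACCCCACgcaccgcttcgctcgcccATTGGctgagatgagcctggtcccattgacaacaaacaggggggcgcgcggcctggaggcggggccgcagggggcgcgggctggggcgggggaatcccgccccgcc

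Counted on both strands and over all annotated starts of a gene, CCAAT was present in 22 of the 30 pathway genes (73.3%) and in 40.2% of 15843 protein-coding genes with a window. In HMGCS1 it lay 155 to 151 and 100 to 96 bases before the start, and MVD held 3 matches between 159 and 81 bases before it. INSIG1 had 1 match, from 170 to 166 bases before the start, and ACSS2 1 match, from 123 to 119. GGGCGG, the box of SP1, was present in 29 of the 30 genes (96.7%) and in 62.1% of all coding genes. TCACNCCAC was found in SREBF2 alone (3.33%), from 133 to 125 bases before the start, and in 1.19% of all coding genes. The motifs were searched separately, so a letter could count in more than 1 of them. Such matches describe letters in these windows and were not tested as binding sites.

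Acetyl-CoA reaches the cytosol mainly through ACLY, which cleaves citrate, and ACSS2, which activates acetate, and both were highest in MIV. ACLY gave signals of 10805, 12012 and 12414 on the 3 MII arrays, 8007, 8147 and 8148 on the MIII arrays and 18354, 18663 and 18258 on the MIV arrays. The lines did not overlap, and the log2 change was 1.18 ± 0.05 (SE) in MIV against MIII (limma adjusted p = 2.48e-10), a call, and 0.65 ± 0.05 in MIV against MII, below the 2-fold minimum. ACSS2 moved further, from 549, 495 and 533 in MIII and 1160.4, 1205 and 1026 in MII to 5486, 4529.9 and 4349 in MIV. It was called in all 3 comparisons: it rose by 3.14 ± 0.09 on the log2 scale in MIV against MIII (limma adjusted p = 5.24e-12) and by 2.06 ± 0.09 against MII (adjusted p = 7.2e-10), and its change was -1.08 ± 0.09 in MIII against MII (adjusted p = 3.55e-07).

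The thiolases, which join or split acetyl-CoA units, went separate ways. ACAT1, the mitochondrial thiolase of ketone body and isoleucine metabolism, stood at 4097 ± 90.7 in MII, 3812 ± 229 in MIII and 5124 ± 184 in MIV (n = 3, SD) and was not called in any comparison. ACAT2, whose cytosolic enzyme feeds acetoacetyl-CoA into the mevalonate pathway, gave 2979.9, 2647 and 2999.6 in MII, 1394, 1519 and 1467 in MIII and 86.6, 53.5 and 72.8 in MIV. Its MIV signals lay around the pooled median of 69.3, while every other cholesterol-making enzyme measured had a higher mean in MIV than in MII. It fell in MIV, with log2 changes of -5.03 ± 0.12 against MII (limma adjusted p = 1.58e-12) and -4.07 ± 0.12 against MIII (adjusted p = 5.87e-12). In MIII against MII the change of -0.97 ± 0.12 missed the 2-fold minimum, and without MII replicate 2 it was called at -1.03. ACAT2 rests on 1 probe set (209608_s_at). The gene lies on chromosome 6 (chr6:159762045-159779112, GRCh38.p14), where its annotated span overlaps that of TCP1 by 615 bases and that of SOD2 by 237 bases. TCP1 was not analysed here, and SOD2, a mitochondrial superoxide dismutase, stood at 432 ± 25.6 in MII, 1120.0 ± 87.6 in MIII and 527 ± 42.9 in MIV (n = 3, SD), an order that differs from that of ACAT2.

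The mevalonate steps held the largest rise of the pathway in MIV against either other line, that of HMGCS1. All 6 genes measured in these steps had their 3 MIV arrays above the 3 MII arrays and the 3 MII arrays above the 3 MIII arrays. HMGCS1, which condenses acetyl-CoA with acetoacetyl-CoA to HMG-CoA and whose upstream sequence is shown above, gave 2009.7, 1892 and 1828 in MII, 976, 1259 and 1001 in MIII and 12450.2, 10795 and 10448 in MIV. The lowest MIV array, at 10448, stood far above the highest of the other lines, at 2009.7. The log2 change was 3.36 ± 0.09 against MIII (limma adjusted p = 2.48e-12) and 2.54 ± 0.09 against MII (adjusted p = 8.16e-11), both calls. The second probe set of HMGCS1 gave 3.83 ± 0.20 and 2.35 ± 0.20.

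The kinases that phosphorylate mevalonate had the smallest changes of this segment in both comparisons with MIV. MVK, mevalonate kinase, stood at 1286 ± 118 in MII, 1091 ± 95.9 in MIII and 1669 ± 70.2 in MIV (n = 3, SD), with a log2 change of 0.61 ± 0.08 in MIV against MIII. Its other probe sets past the filter gave 1.21 and 1.18 there, so its place below the 2-fold minimum depends on the probe set. PMVK, phosphomevalonate kinase, had 1462 ± 92.4, 1047 ± 78.5 and 1976 ± 114 in the same order and a change of 0.91 ± 0.08. Neither kinase was called in any comparison.

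MVD, the decarboxylase that makes isopentenyl diphosphate, had the widest span between MIII and MII of the list. Its signals were 681, 732 and 738 in MII, 209.7, 199.5 and 170.4 in MIII and 1863, 2182 and 1861 in MIV. The 3 groups were far apart, and MVD was called in all 3 comparisons: 3.23 ± 0.10 for MIV over MIII (limma adjusted p = 8.9e-12), 1.43 ± 0.10 for MIV over MII (adjusted p = 6.83e-08) and -1.80 ± 0.10 for MIII over MII (adjusted p = 4.09e-09). IDI1, which isomerises isopentenyl diphosphate, gave 5913, 5305 and 6513 in MII, 4298, 4147 and 4349 in MIII and 21659.8, 18972 and 21747 in MIV, and rose in MIV by 2.28 ± 0.07 against MIII and 1.81 ± 0.07 against MII on the log2 scale. Its probe sets disagree: the bright 208881_x_at and 204615_x_at gave 2.28 and 2.20 against MIII, while the dim 242065_x_at and 233014_at gave 0.10 and 0.18. The suffix x marks probes that can match other transcripts. Because its probe sets disagree, the rise of IDI1 is uncertain. The IDI1 gene also overlaps IDI2-AS1 by 5050 bases, and FDPS overlaps RUSC1-AS1 by 3812 bases. Whether any probe set reads these non-coding transcripts was not tested. FDPS, which joins these units to farnesyl diphosphate, the branch point to sterols and prenyl groups, gave 9090.1, 9047 and 9094 in MII, 4965, 4561 and 4554 in MIII and 17969.5, 17688 and 16788 in MIV. It was called in MIV against MIII at 1.89 ± 0.05 (limma adjusted p = 1.27e-12). MIV differed from MII by 0.94 ± 0.05 and MIII from MII by -0.95 ± 0.05, both short of 2-fold.

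From squalene onward the enzymes belong to sterol synthesis alone. SQLE, squalene epoxidase, a rate-limiting step after mevalonate, gave 7768, 7801 and 7976 in MII, 4589, 5011 and 5384 in MIII and 16812, 16797 and 16261 in MIV. LSS, which folds the epoxide into lanosterol, gave 3982, 3716 and 4176 in MII, 1861, 2044 and 2098 in MIII and 9206, 8239 and 8577 in MIV. Both genes had every MIV array above every MII array and every MII array above every MIII array. In MIV, SQLE rose by 1.08 ± 0.05 against MII and 1.73 ± 0.05 against MIII on the log2 scale (limma adjusted p = 2.63e-09 and 1.07e-11), and LSS by 1.13 ± 0.06 and 2.11 ± 0.06 (adjusted p = 8.58e-09 and 7.69e-12). In MIII against MII, LSS was not called at -0.98 ± 0.06, but was called at -1.02 without MII replicate 2 and at -1.01 without MIII replicate 3.

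Of the 7 genes measured between lanosterol and cholesterol, 6 were called up in MIV against MIII, but 2 against MII. TM7SF2, a sterol reductase related to LBR, was dim: it gave 181, 153 and 162 in MII, 44, 54.4 and 63.8 in MIII and 204, 245 and 257 in MIV. Its MIII signals all lay below the pooled median, and it was called up in MIV against MIII (1.81 ± 0.19, limma adjusted p = 2.72e-06) and down in MIII against MII (-1.35 ± 0.19, adjusted p = 5.1e-05). With the offset at the pooled median the latter change was -0.93 and no longer called. MSMO1, the sterol methyl oxidase, gave 11282, 11245 and 12482 in MII, 6344, 5872 and 5741 in MIII and 25936, 25814 and 25816 in MIV. It rose in MIV by 2.11 ± 0.05 against MIII and 1.15 ± 0.05 against MII (log2, limma adjusted p = 1.12e-12 and 8.68e-10), and its change in MIII against MII, -0.96 ± 0.05, was called at -1.0 without MIII replicate 1. NSDHL, which works with MSMO1 in removing the methyl groups, departed from the order on the probe set used. Its signals there were 1713 ± 118 in MII, 936 ± 84.4 in MIII and 1811 ± 231 in MIV (n = 3, SD). MIV and MII overlapped on that probe set, and the change of 0.93 ± 0.10 against MIII was called only without MIV replicate 3, at 1.01. The dimmer 215093_at of NSDHL had the order in its means, at 915 in MII, 595 in MIII and 1188 in MIV. Its change was 0.38 ± 0.13 in MIV against MII, so the departure of NSDHL depends on the probe set.

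HSD17B7, the keto-reductase of the same demethylation, gave 1491, 1507 and 1485 in MII, 1168, 1049 and 1285 in MIII and 3512, 3492 and 3558 in MIV. It rose in MIV by 1.58 ± 0.07 against MIII and 1.23 ± 0.07 against MII (log2, limma adjusted p = 3.6e-10 and 9.21e-09), with 1 probe set (220081_x_at) whose suffix marks probes that can match other transcripts. EBP, the sterol isomerase, gave 3570.1, 3644 and 3587 in MII, 2449.6, 2633 and 2507 in MIII and 5751, 6279.9 and 5305 in MIV. SC5D, a sterol desaturase, gave 3560.5, 3207 and 3659 in MII, 1549, 1650.1 and 1776 in MIII and 5851, 5204 and 5352 in MIV. For both, the lines were separate and MIV was the highest. DHCR7, which makes cholesterol in the last step of its branch, gave 3169, 3296 and 3543 in MII, 2189, 2058 and 1959.6 in MIII and 5195, 5262 and 5588 in MIV. Against MIII, these 3 genes rose in MIV by 1.18 ± 0.06, 1.71 ± 0.07 and 1.36 ± 0.06 on the log2 scale (limma adjusted p = 1.89e-09, 1.52e-10 and 3.88e-10). Against MII the probe sets used stayed under 2-fold at 0.68 ± 0.06, 0.65 ± 0.07 and 0.68 ± 0.06. For EBP and DHCR7 this depends on the probe set: 202735_at of EBP gave 1.01 ± 0.08 there and 201791_s_at of DHCR7 gave 1.29 ± 0.08. The probe sets 213789_at and 231320_at of EBP gave 0.70 ± 0.14 and 0.35 ± 0.43, and 215064_at of SC5D gave 0.70 ± 0.38. SC5D was also called down in MIII against MII (-1.06 ± 0.07, adjusted p = 2.5e-08), and its dim second probe set gave -0.94 ± 0.38 there. With the mean of all probe sets EBP was at 0.87 in MIV against MIII and was not called, and its dim probe set 231320_at gave -0.37 ± 0.43.

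**Figure D3:**
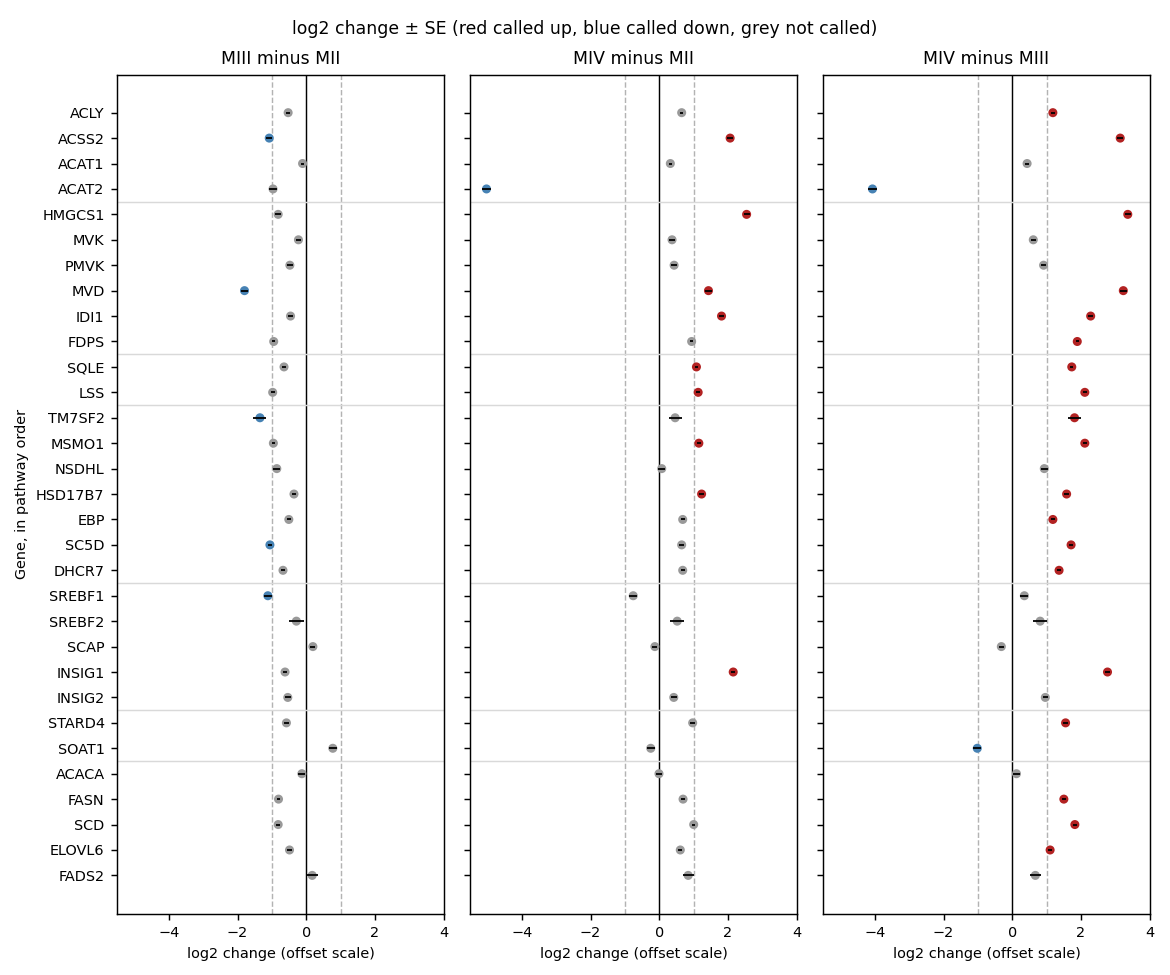
log2 change with its SE (x axis, offset scale) for the 31 pathway genes (y axis, in pathway order) in MIII minus MII, MIV minus MII and MIV minus MIII. Red points were called up, blue ones called down and grey ones not called, and dashed lines mark 2-fold: 0 red and 5 blue points stand in the left panel, 9 and 1 in the middle and 19 and 2 in the right.

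Among the regulators, the 2 INSIG genes had the order of most enzymes without overlap between lines, and SREBF1 and SCAP did not have it. SREBF2 had it in its means alone, and only on the probe set used. INSIG1, itself a target of SREBPs and the protein that retains SCAP, gave 2240.4, 2588 and 2314 in MII, 1517, 1572 and 1520.1 in MIII and 10784, 10259 and 10783 in MIV. It rose in MIV by 2.77 ± 0.06 against MIII and 2.15 ± 0.06 against MII (log2, limma adjusted p = 2.67e-13 and 6.56e-12), and its other probe sets gave 2.70 and 2.87 against MIII. INSIG2, its paralog, had 654 ± 17.8 in MII, 446 ± 21.7 in MIII and 881 ± 19.6 in MIV (n = 3, SD), without overlap between lines, and was not called in any comparison, with 0.96 ± 0.08 in MIV against MIII. SREBF1, whose product favours fatty acid genes, gave 4698, 3763 and 3780.2 in MII, 2257, 1690.3 and 1693 in MIII and 2094, 2398 and 2693 in MIV. Its MII arrays were the highest, its MIII and MIV arrays overlapped, and it was called down in MIII against MII (-1.12 ± 0.12, limma adjusted p = 3.79e-06). In MIV against MII its change was -0.76 ± 0.12 (adjusted p = 0.000179), short of 2-fold and opposite in sign to that of most enzymes.

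SREBF2, whose product favours cholesterol genes, gave 960.5, 549.7 and 1124 in MII, 638, 571 and 880.3 in MIII and 1273, 1183 and 1193 in MIV. All MIV arrays lay above those of both other lines, the MII arrays spread over the whole range of the MIII arrays, and the change of 0.81 ± 0.21 in MIV against MIII (limma adjusted p = 0.00469) was not called. Its other probe sets gave 0.25 ± 0.17 and 0.37 ± 0.18 there, and their means did not have the order. In MII, MIII and MIV, 201248_s_at was at 720, 555 and 685, and 242748_at at 236, 250 and 325. SCAP, the escort of the SREBPs, was at 1403 ± 84.1 in MII, 1605 ± 18.6 in MIII and 1284 ± 93.9 in MIV (n = 3, SD). Of the 5 regulators on the pathway list, SCAP alone had a positive change in MIII against MII, at 0.19 ± 0.07. Its change in MIV against MIII was -0.32 ± 0.07, and neither was called. The positive change was not particular to SCAP among genes of SREBP processing and sterol sensing. Of 9 neighbours tested from that list, 4 were higher and 2 lower in MIII than in MII at an unadjusted limma p under 0.05. Among all 12594 genes 3225 were higher and 3483 lower.

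**Figure D4:**
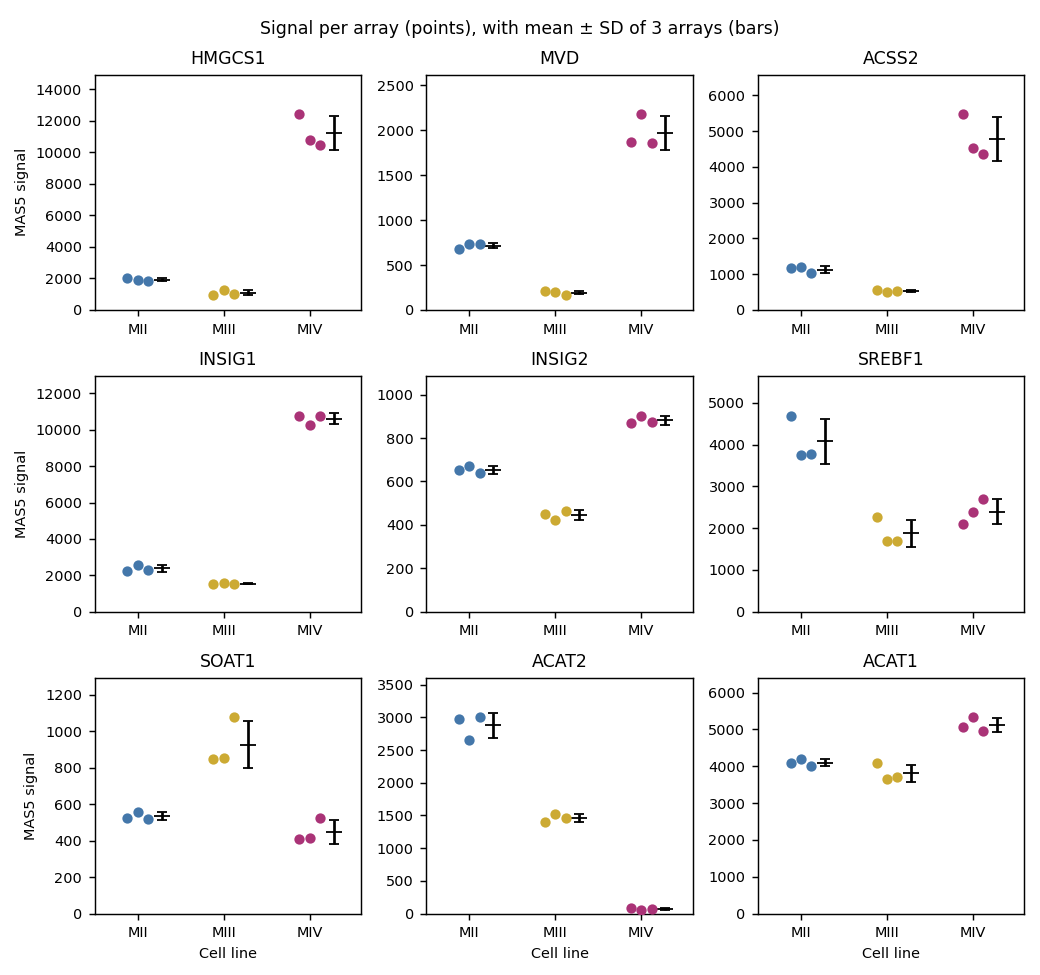
MAS5 signal (y axes, linear, from 0) on the 3 arrays of MII, MIII and MIV (x axes) for 9 genes, with bars for the mean ± SD of 3 arrays. HMGCS1, MVD, ACSS2, INSIG1 and INSIG2 are lowest in MIII and highest in MIV, SREBF1 is highest in MII, SOAT1 is highest in MIII, and ACAT2 is near 0 in MIV (86.6, 53.5 and 72.8) while ACAT1 is not.

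Sterol transfer and storage held opposite patterns. STARD4, a carrier that moves cholesterol between membranes, gave 1271, 1346 and 1420.5 in MII, 838, 957 and 888 in MIII and 2581, 2545 and 2833 in MIV. It rose in MIV against MIII (1.55 ± 0.07, limma adjusted p = 7.27e-10) and was at 0.97 ± 0.07 against MII, which passed 2-fold at 1.01 without MII replicate 3. SOAT1, which esterifies cholesterol for storage in droplets, gave 523, 559 and 519 in MII, 849.8, 851 and 1076 in MIII and 408, 415 and 522 in MIV. All MIII arrays exceeded those of both other lines, and SOAT1 was called down in MIV against MIII (-1.02 ± 0.12, adjusted p = 6.71e-06). That call sits at the 2-fold border: it was lost without MIII replicate 3 (-0.91), without MIV replicate 1 (-0.96) and without MIV replicate 2 (-0.97), with the sign kept. The other probe sets of SOAT1 gave -0.90 and -1.09.

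In fatty acid synthesis, 3 of the 5 genes measured were called up in MIV against MIII and 0 were called in the other comparisons, where limma gave 4 at an adjusted p under 0.05 in MIV against MII, all higher in MIV, and 3 in MIII against MII, all lower in MIII. ACACA, the acetyl-CoA carboxylase that commits carbon to fatty acids, was at 2760.0 ± 465 in MII, 2505 ± 129 in MIII and 2733 ± 252 in MIV (n = 3, SD), with overlap between all lines and limma adjusted p of at least 0.329 in each comparison. FASN, which builds palmitate, gave 9745, 8889.5 and 9856 in MII, 5262, 5478 and 5524 in MIII and 15108, 14831 and 16036 in MIV, and rose in MIV against MIII by 1.5 ± 0.05 (log2, limma adjusted p = 2.71e-11). SCD, which makes monounsaturated fatty acids, gave 13258, 13673 and 14002 in MII, 7489, 7926 and 7701 in MIII and 26412, 26482 and 28912 in MIV. It rose against MIII by 1.82 ± 0.05 (adjusted p = 1.63e-12), and against MII its change of 1.00 ± 0.05, just under 2-fold before rounding, was not called, although it was called at 1.02 without MII replicate 3, MIV replicate 1 or MIV replicate 2, and its 3 other probe sets gave 1.35, 1.59 and 1.46. ELOVL6, which lengthens palmitate, gave 4114, 4240.5 and 4718 in MII, 2867, 3105 and 3296 in MIII and 6631, 6817 and 6472 in MIV. It rose by 1.10 ± 0.06 against MIII (adjusted p = 6e-09), a call that the mean of all probe sets placed at 0.92. FADS2, the desaturase of polyunsaturated fatty acids, was dim at 181 ± 14.6, 208 ± 34.1 and 341 ± 49.2 (SD, n = 3), with MII and MIII overlapping and MIV above both, and was not called.

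For the genes called up in MIV against MIII, most further probe sets gave the same picture in that comparison. Genes not called up there, such as MVK, NSDHL and SREBF2, whose probe sets differed as given above, are outside these counts. In MIV against MII, whether EBP, DHCR7 and SCD passed 2-fold depended on the probe set. Of the 19 genes called up in MIV against MIII, 11 had further probe sets past the filter, 23 in all, and 22 of these had a change above 0 and 19 were called up. The exceptions were the dim probe sets of IDI1 and EBP named above and 227491_at of ELOVL6, at 0.55 ± 0.11.

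**Figure D5:**
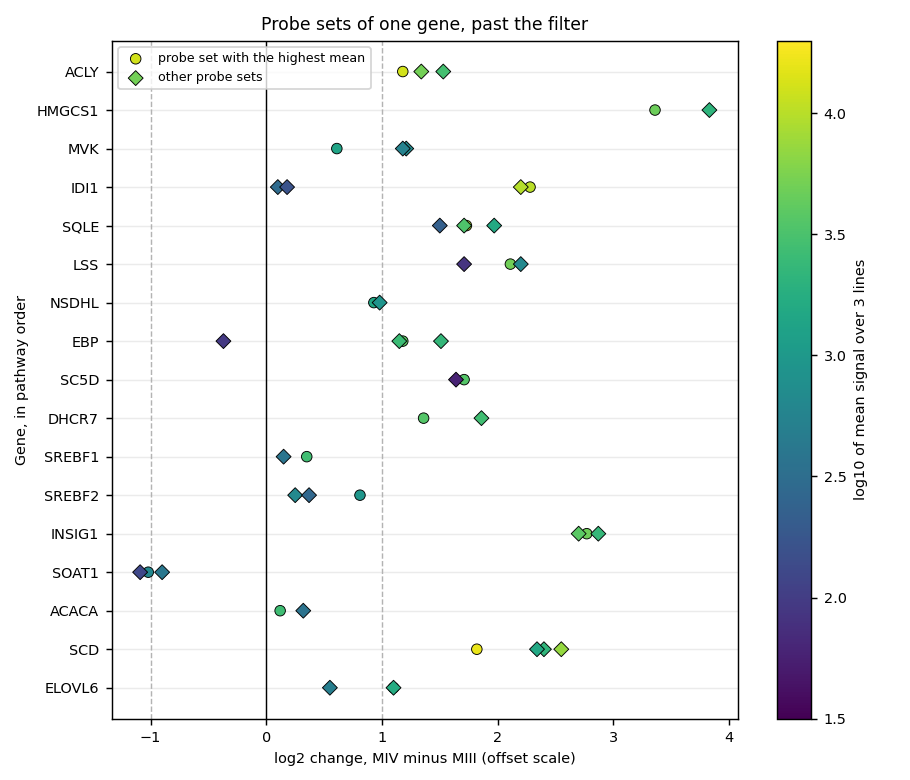
log2 change in MIV minus MIII (x axis, offset scale) for the 49 probe sets past the filter of the 17 pathway genes with more than 1 (y axis). Circles are the probe sets with the highest mean, diamonds the others, and colour is the log10 of the mean signal. The points of INSIG1 lie together at 2.70 to 2.87, while those of IDI1 split between 0.10 and 2.28.

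Genes around the pathway gave a mixed picture. In the machinery of SREBP processing and sterol sensing, 9 of 11 listed genes were tested, and 1 was called up and 1 down in MIV against MII. Of all genes tested, 2.96% were called up and 5.18% down there, and 4.95% and 7.79% in MIV against MIII. TMEM97, a sterol-responsive receptor of the endoplasmic reticulum, stood at 3298 ± 49.0 in MII, 3251 ± 223 in MIII and 8763 ± 534 in MIV (n = 3, SD). It rose in MIV by 1.40 ± 0.06 against MII and 1.43 ± 0.06 against MIII (log2), the 1 call of that comparison. UBXN8, an adaptor in protein degradation at the endoplasmic reticulum, was called down in MIV against MII at -1.04 ± 0.11, a call lost without MII replicate 1 (-0.97), MIV replicate 2 (-0.99) or MIV replicate 3 (-0.98). In MIII against MII limma called 0 of the 9, with 4 higher and 2 lower at an unadjusted p under 0.05. Of all 12594 genes, 3225 were higher and 3483 lower at that p in MIII against MII, and 2872 and 3273 in MIV against MII.

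Of 13 genes of sterol uptake, trafficking and export, 3 were called down in MIV and 2 in MIII, each against MII. Of all genes tested, 5.18% and 5.55% were called down in these comparisons. ABCG1 and ABCA1, exporters of cholesterol, and MYLIP, a ubiquitin ligase that removes lipoprotein receptors, are known targets of the sterol receptors of the liver X family. ABCG1 gave 247 ± 22.6 in MII, 53.6 ± 0.70 in MIII and 27.2 ± 8.80 in MIV (n = 3, SD), and its log2 change was -2.56 ± 0.25 in MIV and -1.88 ± 0.25 in MIII against MII. With the mean of all probe sets the latter was -0.99 and not called. MYLIP was at 231 ± 18.1 and 223 ± 21.9 in MII and MIII and was at 22.5 ± 19.8 in MIV, a change of -2.73 ± 0.31 against MII and -2.69 ± 0.31 against MIII. ABCG1 and MYLIP were below the pooled median where they were lowest, so their low level is poorly measured. The same holds for ABCA1, with means of 58.7 in MIII and 47.7 in MIV. ABCG1 and ABCA1 passed the filter on low signals only through their MII arrays, so the filter favoured their down calls against MII. ABCA1 was called at -1.27 ± 0.34 in MIV and -1.15 ± 0.34 in MIII against MII, but with the mean of all probe sets it stood at -0.55 and -0.45, and without MIII replicate 1 the latter change was -0.73. NPC1, which releases cholesterol from lysosomes, was called up in MIV against MIII at 1.06 ± 0.08, and stood at 0.23 with the mean of all probe sets and at 0.99 without MIV replicate 3.

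In the branch from farnesyl diphosphate to prenylated proteins, dolichol and ubiquinone, 2 of 14 genes were called up in MIV against MIII. Of all genes tested, 4.95% were called up there. FNTB, a farnesyltransferase subunit, and GGPS1, which makes geranylgeranyl diphosphate, were called up in MIV against MIII at 1.08 ± 0.16 and 1.05 ± 0.07. Without MIII replicate 1 FNTB was at 1.00, just short of 2-fold, and GGPS1 was at 0.99 without MIV replicate 1, and neither was then called. Limma called 0 of the 14 in MIV against MII (3 higher and 4 lower at an unadjusted p under 0.05) and 0 in MIII against MII (0 higher and 9 lower). Of all 12594 genes, 2872 were higher and 3273 lower at that p in MIV against MII. In MIII against MII these counts were 3225 and 3483. Among 9 tested partners of the sterol enzymes, such as electron donors and scaffold proteins, CYB5A and ERG28 were called up in MIV against MIII, both at 1.26, and both stood under 2-fold with the mean of all probe sets (0.81 and 0.89). Limma called 0 of the 9 in MIV against MII (5 higher and 2 lower at an unadjusted p under 0.05) and 0 in MIII against MII (2 higher and 4 lower).

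Further genes of fatty acid supply, elongation and activation, 24 tested of 32 listed, moved in both directions. In MIV against MII 4 were called up and 0 down, against 2.96% and 5.18% of all genes tested. At an unadjusted limma p under 0.05, 9 were higher and 8 lower there, against 2872 and 3273 of all 12594 genes. In MIV against MIII 3 were called up and 2 down, against 4.95% and 7.79% of all genes. In MIII against MII 4 were called up and 2 down, against 6.17% and 5.55%. LPIN1, a phosphatidate phosphatase of triglyceride synthesis, had 2287 ± 26.8 in MII, 1300.0 ± 48.7 in MIII and 4987 ± 158 in MIV (n = 3, SD), the same order as the enzymes above, and rose by 1.93 ± 0.05 in MIV against MIII (log2). ELOVL7, an elongase, rose in MIV by 1.92 ± 0.14 against MIII and 1.32 ± 0.14 against MII. SCD5, a second stearoyl-CoA desaturase, differed from SCD: it was lowest in MII at 241 ± 19.3, with 763 ± 38.3 in MIII and 1181 ± 41.6 in MIV, and FADS3 was called up in MIV against MII at 1.25 ± 0.12. ACSL5, which activates fatty acids, and GPAM, which starts glycerolipid synthesis, were highest in MIII. ACSL5 gave 84.7 ± 20.2, 444 ± 78.6 and 80.7 ± 3.96 in MII, MIII and MIV, and GPAM 421 ± 28.5, 1392 ± 93.7 and 429 ± 20.2, with log2 changes of 2.17 ± 0.20 and 1.68 ± 0.09 in MIII against MII. Of the tested fibroblast and adipocyte markers, DCN, THY1, LUM, PLIN1 and CIDEC were highest in MIII too, while COL1A1, FAP, LIPE and PPARG were not. THY1, LUM and PLIN1 were tested only because of their MIII arrays. The part of the fibroblast and adipocyte markers in the levels of ACSL5, GPAM and SOAT1 was not tested.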

How the data were processed

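Total RNA of 3 cell lines, 3 arrays each, was measured on Affymetrix arrays. The deposited values are linear signal intensities made by the authors with MAS5, per the submitters' processing notes, and each array has the same trimmed mean of 500.1. The software version, the target setting and detection calls are not given in the sources used here. Of 54675 probe sets, 41091 list 1 gene in the platform annotation, 1801 list several, 11721 list none, and 62 are controls. Of the probe sets that list 1 gene, 41037 had a gene identifier that matched RefSeq. From the deposited intensities, log2(signal + 18.3) was computed, the offset being the pooled 25th percentile, and 1 probe set per gene, that with the highest mean, was kept. Genes above the pooled median on at least 3 arrays were tested over all 9 arrays with limma 3.58.1 in R 4.3.3 (lmFit, eBayes with an intensity trend) and Benjamini-Hochberg adjustment over 12594 genes, without a replicate block. A call needs an adjusted p under 0.05 and 2-fold. The scripts were tested on simulated data. Pathway genes called in any comparison are given array by array, and of each neighbouring list up to 3 called genes of the largest change per comparison. The pathway genes, neighbouring lists and marker lists were chosen with earlier results of these data known. Alternatives covered the offset, scaling, filter, probe set choice, thresholds, model and each array left out. Same-numbered arrays of different lines deviated from their line means with correlations between -0.039 and 0.039, so the numbers did not pair the arrays.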

Additional observations from a re-analysis of the deposited data

How the results depend on the processing

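No change of a pathway gene that was called reversed its sign under any alternative run. In MIV against MIII, in which 19 genes were called up and 2 down, restriction to probe sets without a suffix, which leaves 20 genes, gave 10 up and 1 down, and the stricter threshold (adjusted p under 0.01 and 4-fold) gave 7 and 1. The count of down calls there was also 1 with the offset at the pooled median (SOAT1 at -0.94) and with quantile normalization (SOAT1 at -0.98). In MIV against MII, with 9 up and 1 down, the suffix-free probe sets gave 5 and 0, no fold minimum 23 and 2, and the stricter threshold 3 up. The only probe set of ACAT2 carries a suffix, so ACAT2 was not tested in the suffix-free fit and its down calls could not appear there. In MIII against MII, with 0 up and 5 down, the suffix-free probe sets gave 1 down, no fold minimum 2 up and 25 down, and the stricter threshold 0 down. In the suffix-free fit the IDI1 change in MIV was 0.38 against MII and 0.18 against MIII, neither called. Leaving out 1 array at a time gave 9 to 11 up and 1 to 1 down in MIV against MII, 19 to 20 up and 1 to 2 down in MIV against MIII, and 0 to 0 up and 5 to 7 down in MIII against MII. The fit with the replicate number as a block gave 9 up and 1 down, 19 up and 2 down, and 0 up and 5 down, and changed no call of a pathway gene, and the arrays share only a number. Over all genes, 373 were called up and 652 down in MIV against MII, 623 and 981 in MIV against MIII, and 777 and 699 in MIII against MII. These became 239 and 296, 434 and 459, and 391 and 419 with the filter at the pooled 75th percentile, which tests 8318 genes. With the offset at the pooled median 243 were up in MIV against MII. With no fold minimum they were 2514 and 2796, 3186 and 3344, and 2880 and 3066, and with the stricter threshold 59 and 198, 170 and 345, and 258 and 241. Where no cause is given by the construction of an alternative, the cause was not tested. With 3 arrays a line and no detection calls, signals near or below the pooled median, such as those of ACAT2 in MIV and TM7SF2 in MIII, fix the size of a fold only loosely.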
